A study of Rattus norvegicus with 6 samples.

Results

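The circular RNAs described here are those built from 10 or more exons in white matter of 6 rats. A circular RNA (circRNA) is a closed loop that forms when a splice donor joins an acceptor lying upstream of it, and reads across this back-splice junction count it. Members were the entries that the authors' deposited table listed as exonic circRNAs with an exon number of at least 10 and that had at least 1 junction read over all libraries. The table listed 1189 such entries, of which 349 had no read and 840 were kept. These 840 long circRNAs came from 514 host genes, made up 9.73% of the 8635 circRNAs with a read, and held 2077 of the 35272 junction reads (5.89%). The remaining entries were 6621 exonic circRNAs of 1 to 9 exons, called shorter circRNAs below, and 1174 ciRNAs, which derive from introns.

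The study compared 3 rats of a cerebral palsy model with 3 normal control rats, with 1 library per rat. The sources used here do not say how the model was made, or the strain, age or sex of the animals. Total RNA of both groups was digested with RNase R, an exonuclease that removes linear RNA, before fragmentation, random priming, PCR and paired-end sequencing. Cerebral palsy is a motor disorder that follows injury to the developing brain, and the white matter, which holds the myelinated axons and the glia around them, is often injured in it.

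Most circRNAs characterised in mammals hold only a few exons, and the introns that flank them are often long and carry complementary repeats that bring the ends together. A circle of many exons forms when a distant acceptor and donor are paired, so the junction skips back over a large stretch of the gene. A junction read shows the 2 ends of a circle, whereas the exons between them are not read by it and may be partly spliced out in the molecule.

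Control libraries held 6793, 6285 and 5926 junction reads and model libraries 5821, 4750 and 5697. With no read of a circRNA in a library, its share could still reach 0.0442% to 0.0632% (3 reads). PCR copies were not marked by molecular identifiers in these counts, so intervals and limits here cover counting error only. Of 20 marker genes of myelinating oligodendrocytes, 15 hosted a circRNA of any size, with 96 reads from Ptprd and 49 from Tmeff2. The defining myelin genes Mog, Mag and Cnp had no junction read, and Mbp and Mobp had 4 each. The control libraries held 13 reads of Y-chromosome circRNAs and the model libraries 0. The sex of the rats is not in the labels, and its part in the results was not tested.

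The long circRNAs had a median of 13 exons. A total of 564 had 10 to 14 exons and 1578 reads, 183 had 15 to 19 exons and 332 reads, 76 had 20 to 29 exons and 140 reads, and 17 had 30 or more exons and 27 reads. The most exons were listed for a circRNA of Herc2, a giant ubiquitin ligase, with 47 exons (circRNA3576). Next came Dnah3, an axonemal dynein heavy chain, with 43 exons (circRNA7345), and Dock10, a guanine nucleotide exchange factor, with 40 exons (circRNA4864). Each of these 3 rested on a single read, in control 2, model 3 and control 3, respectively. Among long circRNAs with at least 6 reads, the most exons were found in Atm, the DNA-damage kinase (circRNA2311, 27 exons), in Atrnl1, an attractin-like membrane protein (circRNA2130, 25 exons), and in Taf2, a subunit of the transcription factor TFIID (circRNA3045, 22 exons). The Atm circRNA had 2, 0 and 1 reads in the controls and 0, 4 and 1 in the model rats. Its reads thus came from libraries of both groups, with the highest count in model 2.

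Genomic span, measured from the first to the last base of the circle with introns included, had a median of 40296 bp (interquartile range 25813.5 to 70752.5 bp). Shorter circRNAs had a median span of 10355 bp. A span above 100 kb was found for 127 long circRNAs (15.1%), against 2.98% of the shorter ones. The extremes were single-library circles: 2966 bp in Carmil3, a regulator of actin capping protein, with 1 read, and 871675 bp in Cntnap2, a neurexin-family adhesion molecule of axons, with 2 reads. Among members with at least 6 reads, the longest spans were in Ntrk3, the neurotrophin-3 receptor (circRNA3592, 199441 bp), Stag1, a cohesin subunit (circRNA2379, 171130 bp), and Atrnl1 (circRNA2130, 167728 bp). The shortest were in Tasor (circRNA503, 11930 bp), in Ddhd2, a brain lipase (circRNA549, 13198 bp), and at the locus AABR07028902.1 (circRNA2705, 15531 bp). Span per exon had a median of 2895.5 bp in the long class and 2859.33 bp in circRNAs of 6 to 9 exons.

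**Figure D1:**
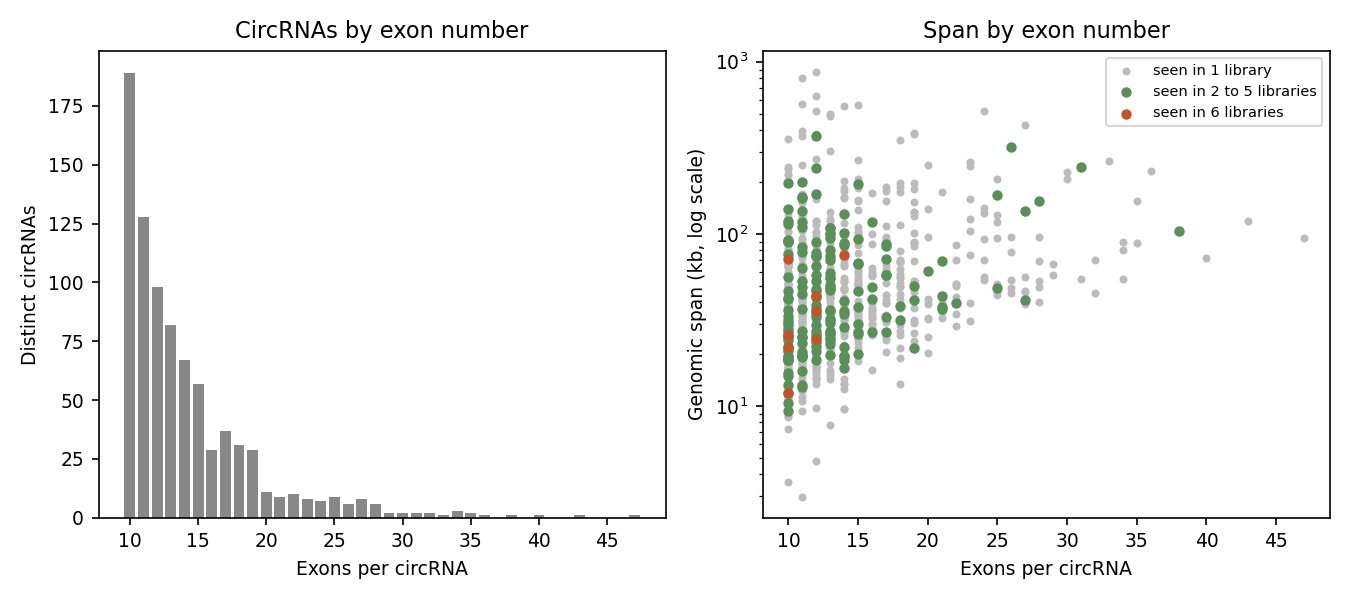
Left, the number of distinct long circRNAs at each exon number. Right, genomic span in kb on a log scale against exon number, with 1 point per circRNA coloured by how many of the 6 libraries it was seen in. Counts decline from 189 circRNAs at 10 exons, and the 8 circRNAs seen in all 6 libraries lie at 10 to 14 exons.

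The median flanking intron was 6557 bp on the acceptor side and 6438 bp on the donor side, against 8329 bp and 7313 bp for the shorter circRNAs. Circles of a single exon had the longest flanks, with medians of 16615.5 bp and 18053 bp. These lengths are a description of the annotation around the circles and were not tested.

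The exon threshold cut through a continuous series. The 279 circRNAs of 9 exons, just outside it, had 863 reads, a median span of 26664 bp and 72.0% seen in 1 library. The 189 of 10 exons, just inside it, had 598 reads, a median span of 29749 bp and 78.3% seen in 1 library.

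Long circRNAs were rare and rarely recurred. Of the 840, 469 (55.8%) rested on a single read, 56 had at least 6 reads and 22 had at least 10 reads, which together held 569 reads. A total of 664 (79.0%) were seen in 1 library only, 111 in 2 libraries, 38 in 3, 13 in 4, 6 in 5 and 8 in all 6. The share seen in 1 library was 56.6% for circles of 1 exon, 66.0% for 2 to 3 exons, 66.4% for 4 to 5 and 69.4% for 6 to 9. Within the long class it was 75.9% at 10 to 14 exons, 85.8% at 15 to 19, 84.2% at 20 to 29 and 88.2% at 30 or more. Among the exonic classes recurrence was therefore lowest in the long one, and 0.952% of its members were seen in all 6 libraries against 3.46% of the shorter circRNAs.

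A long circle seen in one library was less often seen again in another. Between 34.2% and 46.0% of the long circRNAs of a library recurred in at least 1 other library, compared with 59.2% to 64.6% of its shorter circRNAs, and the ranges of the 6 libraries did not overlap. Each distinct long circRNA carried 1.84 ± 0.0698 reads in a library (SD, n = 6), and each distinct shorter circRNA 2.78 ± 0.05. The value was lower for the long class in 6 of 6 libraries (exact two-sided paired permutation test, p = 0.031, the smallest that 6 pairs allow). Adjusted over the 4 library-level tests by the Benjamini-Hochberg method, this permutation p was 0.125. After each library was thinned to the depth of the shallowest, the difference was -0.822 reads per circRNA.

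Reads of rare circles often fell in the same library. Of the 193 long circRNAs with exactly 2 reads in all, 144 (74.6%) had both in 1 library, compared with 914 of 1342 shorter circRNAs (68.1%) and 221 of 234 ciRNAs (94.4%). The table holds read counts and not molecule counts, so reads copied by PCR from 1 molecule and reads of separate molecules cannot be told apart.

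The ends of long circles were often the ends of other circles as well. An acceptor also used by another detected exonic circRNA was found for 51.2% of the long class, compared with 42.8% at 6 to 9 exons, 35.1% at 4 to 5 and 25.9% at 2 to 3. For the donor the shares were 41.5%, 36.4%, 32.9% and 24.4%. Both ends were shared in 218 long circRNAs (26.0%), against 10.6% of the shorter ones, and neither end in 279 (33.2%), against 48.4%. A set of 152 long circRNAs (18.1%) joined an acceptor and a donor that shorter circRNAs each used as well. The long class thus had the highest share at both ends. Genes with many circles give more chances of a shared end, and the part of this was not tested.

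**Figure D2:**
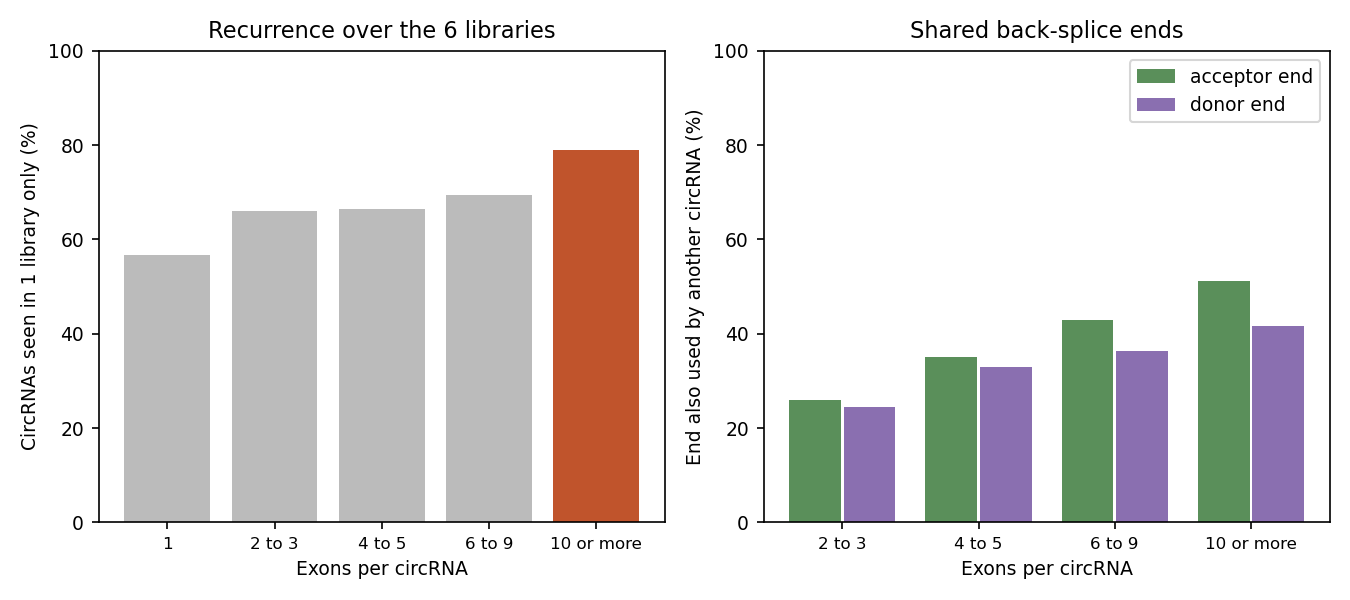
Left, the percent of distinct circRNAs seen in only 1 of the 6 libraries, by exon number. Right, the percent of distinct circRNAs whose acceptor end or donor end is also used by another detected exonic circRNA. Bars start at 0, and the class of 10 or more exons is highest in both panels, at 79.0% on the left and at 51.2% and 41.5% on the right.

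Of the 514 host genes, 503 matched a name in the RefSeq table of rat genes. A single long circRNA was found in 341 hosts, 2 or more in 173 and 5 or more in 18. In 419 hosts shorter circRNAs were detected as well, with 8602 reads, while 95 hosts had long circRNAs only, with 177 reads. Among hosts with both, the long reads exceeded the shorter ones in 59, and in 71 the most-read circRNA was long. Of the 73 hosts with at least 3 long circRNAs, 6 used a single acceptor for all of them and 1 used a single donor. The acceptor of the host's most-read shorter circRNA was also that of 149 of 736 long circRNAs, and its donor that of 104.

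Dennd1b, which activates Rab GTPases of endosomal traffic, had the most long reads of any host, 107 from 6 long circRNAs. They were 56.3% of its exonic circRNA reads. Tasor, a core subunit of the HUSH complex that silences repeats and transgenes through histone methylation, had 99 reads from 5 long circRNAs. All 5 Tasor circles started at 1 acceptor and ended at 5 donors, and that acceptor was also the acceptor of its most-read shorter circRNA. Prex2, an activator of the GTPase Rac, had 67 reads from 10 long circRNAs, which were 80.7% of its exonic circRNA reads. The unnamed locus AABR07019403.1 had 38 reads, all in 1 long circRNA, and Ubn2, a histone-chaperone subunit, had 37 reads in 3.

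The host with the most distinct long circles was Nbea, neurobeachin, which works in membrane traffic to synapses. It had 15 of them with 21 reads, from 6 acceptors and 11 donors. Lrp1b, a receptor of the low-density lipoprotein receptor family, had 10 with 25 reads, and Agtpbp1, which trims glutamates from tubulin, had 9 with 21 reads. Atrnl1 had 8 long circRNAs with 34 reads beside 628 reads of shorter ones. Of its 8 long circles, 6 started at the same acceptor, at position 256692383 of chromosome 1, and 3 ended at the donor of the gene's most-read shorter circRNA. Picalm, a clathrin-assembly protein, had 3 long circRNAs with 30 reads, all from the acceptor that its most-read shorter circRNA used, and long reads were 71.4% of its exonic circRNA reads. Long circles were thus a main product at Prex2 and Picalm and a minor one at Atrnl1.

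**Figure D3:**
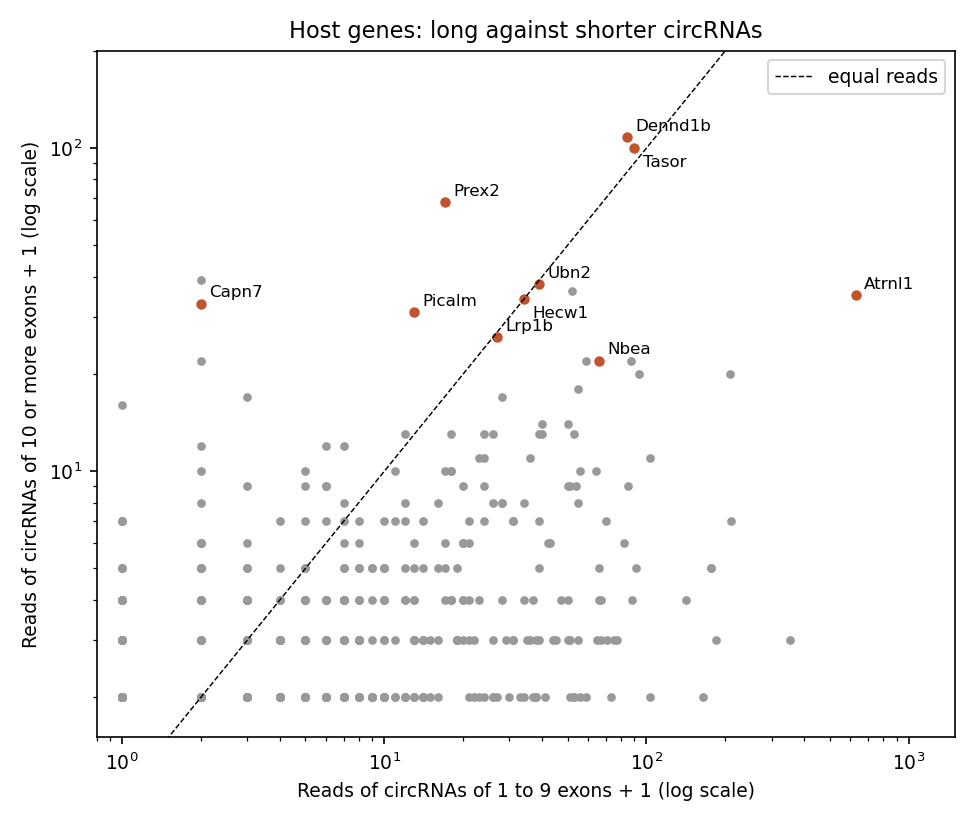
Junction reads of long circRNAs against those of shorter circRNAs for the 514 host genes, both plus 1 on log scales, summed over 6 libraries, with 1 point per host and the line of equal reads. Prex2, Picalm and Capn7 lie above the line and Atrnl1, with 628 shorter and 34 long reads, lies far below it.

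Lists of genes with many exons covered part of each family. A list of 20 large ubiquitin ligases and deubiquitinases, which leaves out Hecw1, Ttc3 and Usp54, had long circRNAs in 13 genes, 35 circles with 51 reads. Within it Usp34 had 9 reads, Herc2 8 and Birc6 6, whereas Hecw1, Ttc3 and Usp54 had 33, 19 and 16. BEACH and VPS13 proteins, which act in membrane traffic and lipid transfer, had them in 7 of 11 genes, 29 circles with 43 reads, led by Nbea and by Vps13a with 12. Chromatin regulators had them in 10 of 23 genes with 122 reads, 99 of them from Tasor. A mixed list of GTPase-activating and TBC-domain proteins had them in 6 of 12 genes with 57 reads. Of these, 35 came from Rabgap1 and 9 from Tbc1d32.

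Spectrins, spectraplakins, nesprins and dystrophins had 8 long reads against 450 shorter ones, so that long circles were 1.75% of their exonic reads. Ion channels and their large subunits had 18 long reads from 10 of 18 genes, or 3.11%. Dynein heavy chains had 8 long reads from 5 of 15 genes (25%), and DOCK guanine nucleotide exchange factors 17 from 5 of 11 (13.6%). PI3K-like and lipid kinases had 17 from 4 of 10 (14.7%), nuclear pore and transport genes 14 from 6 of 16 (11.5%), and microtubule transport and cilium genes 5 from 3 of 18 (2.06%). The same percentage was 12.2% for the ubiquitin list, 19.8% for BEACH and VPS13 genes, 13.99% for chromatin regulators and 9.60% for the GTPase-activating list. The lists were not tested against each other. Over all hosts of long circles, the long class held 19.4% of exonic reads, a share that the choice of hosts with a long circle raises. The list percentages also count shorter reads of listed genes without a long circle. Over all exonic circRNAs of any host, the long class held a mean of 5.64% of reads in control libraries and 6.74% in model libraries.

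Hosts that mark a cell type were few. Long circles of myelinating oligodendrocyte markers came from 3 of 20 genes, with 5 reads from Ptprd, 2 from Anln and 2 from Phlpp1. They had 5, 2 and 1 reads in the controls and 1, 0 and 0 in the model rats, so the groups touched at 1 read. Of 9 astrocyte markers, Prex2 alone had any, with 67 reads. Neuronal markers had 19, of which 17 came from Rims1, a scaffold of the presynaptic active zone, and ependymal markers had 3. Markers of oligodendrocyte precursors, microglia and endothelial cells had no long circRNA. In bulk tissue, fewer cells of a type and less RNA per cell cannot be told apart.

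Long circRNAs held a larger share of the junction reads in the model libraries than in the controls. They had 397, 332 and 301 reads in the controls and 405, 285 and 357 in the model rats. The control shares were 5.84% (Wilson 95% interval 5.31 to 6.43), 5.28% (4.76 to 5.86) and 5.08% (4.55 to 5.67). The model shares were 6.96% (6.33 to 7.64), 6.0% (5.36 to 6.71) and 6.27% (5.67 to 6.93). All 3 model libraries lay above all 3 controls, although the counting intervals of neighbouring libraries overlapped. The mean was 5.40% ± 0.396 in controls and 6.41% ± 0.494 in the model group (SD, n = 3 each), a difference of 1.01 percentage points. The exact two-sided permutation p was 0.1, the smallest that 3 against 3 libraries allow, and 0.2 after Benjamini-Hochberg adjustment over 4 tests. This difference did not pass the threshold of 0.05. Circles of 6 to 9 exons held 18.1%, 19.7% and 19.4% in controls and 20.8%, 18.6% and 21.0% in model libraries. Those of 4 to 5 held 29.8%, 29.7% and 25.6% against 26.5%, 24.9% and 27.6%. Those of 2 to 3 held 33.1%, 32.4% and 35.5% against 30.1%, 33.3% and 31.1%. Single-exon circles held 9.55%, 8.32% and 9.75% against 11.5%, 11.3% and 8.97%. The groups overlapped in each of these classes. At 8 or more exons the difference was 1.80 points, so it was not confined to 10 or more.

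For the share in long circRNAs, the difference was 0.731 to 1.23 points when each library was left out in turn. Groups that do not overlap cannot come to overlap by an omission, so only the size of the difference could change there. The groups stayed apart without the most-read member, Dennd1b circRNA30 (0.887 points). They also did so without circRNAs on the Y chromosome (1.01 points), where long circRNAs had only 2 reads. The gap depended on what the reads were scaled to. When the authors' SRPBM signal, a count scaled by 1 divisor per library, was summed over the long circRNAs, the groups overlapped, at 8054 ± 816 in controls and 8286 ± 1342 in the model group (exact permutation p = 0.8, n = 3 each). The share thus compares long circles with the other circles of the same library.

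Within the genes that produced both kinds of circle, the same order was seen. In the 419 hosts with both classes, long circRNAs held 17.0%, 15.6% and 16.3% of the exonic reads of the control libraries. In the model libraries they held 21.7%, 20.5% and 18.8%. Every model library was above every control. The difference was 4.07 points (16.3% ± 0.689 against 20.3% ± 1.48, SD, n = 3 each, exact two-sided permutation p = 0.1, the smallest possible), and it was computed after the shares were seen. It was 3.69 points without Atrnl1, 3.54 without Dennd1b, Tasor and Prex2, and 3.94 in the 244 hosts with at least 2 reads of each class. It is the same reads in another denominator, and not an independent measurement.

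**Figure D4:**
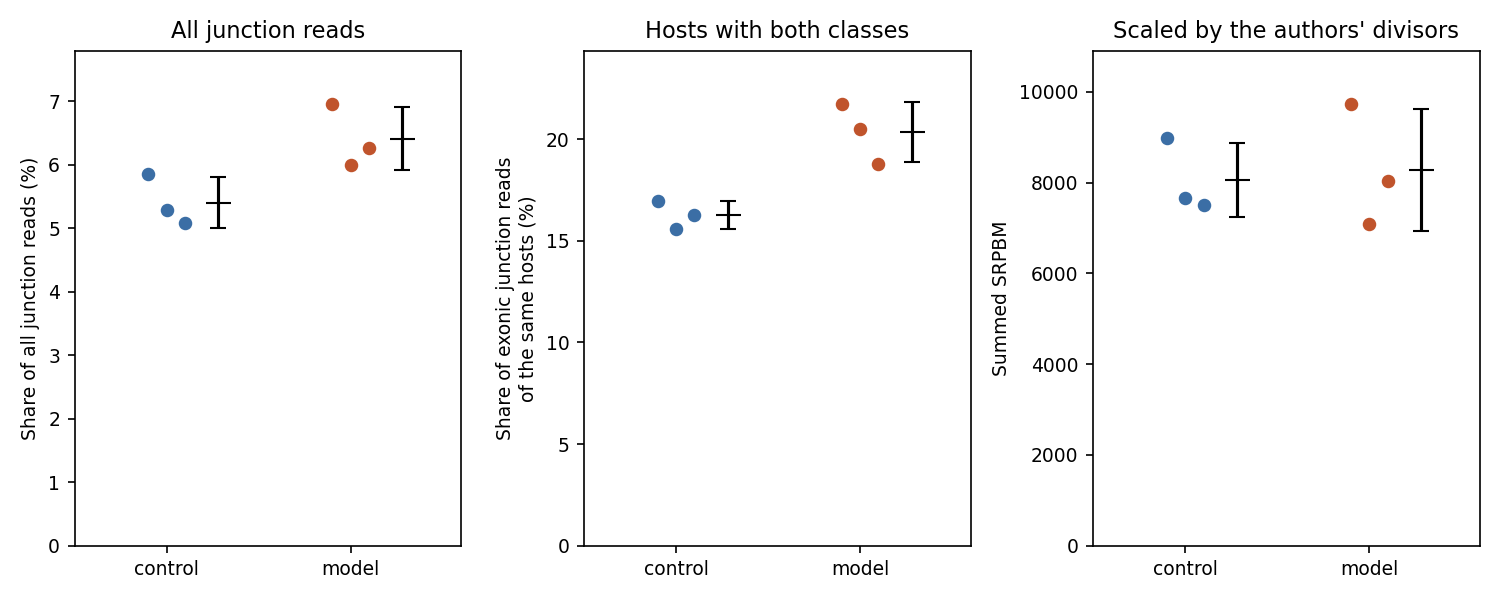
Left, the percent of all junction reads in long circRNAs. Middle, the percent of exonic junction reads in long circRNAs within the 419 hosts with both classes. Right, summed SRPBM of long circRNAs, in the authors' units. Each point is a library, and the line and bar beside each group of 3 are its mean and SD. The groups do not overlap in the first 2 panels and do overlap in the third.

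The number of distinct long circRNAs did not separate the groups. After thinning to 4750 reads, the control libraries held 174, 151 and 151 distinct long circRNAs and the model libraries 188, 152 and 167. The means were 158 ± 13.0 and 169 ± 17.9 (SD, n = 3 each, exact permutation p = 0.5, adjusted p = 0.667). The read-weighted mean log2 span was 15.35 ± 0.0681 in controls and 15.37 ± 0.0305 in the model group (exact permutation p = 0.8, n = 3 each), and the groups overlapped. Long circRNAs seen only in controls numbered 373, only in model rats 350, and in both groups 117. At least 2 libraries of one group and none of the other held 32 for the controls and 27 for the model rats. Every control library held more junction reads than any model library, which favours control-only counts. The same counts over all circRNAs are not given here, so these say nothing particular to long circles.

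No single long circRNA differed between the groups past the threshold. In edgeR's quasi-likelihood test on all circRNAs with the default count filter, 60 circRNAs were tested and 2 (3.33%) were called at a Benjamini-Hochberg adjusted p under 0.05. Only 2 long circRNAs passed that filter, those of Dennd1b and Tasor, and both had log2 fold changes above 0, as did 50% of the 60. Of these 2, 0 were called and 0 had an unadjusted p under 0.05, which 6.67% of the 60 had. DESeq2 and limma voom called 0 long circRNAs as well. With a filter of at least 6 reads over all libraries, 1029 circRNAs were tested, of which 2 (0.194%) were called and 52 (5.05%) had an unadjusted p under 0.05. Of the 840 long circRNAs, 56 entered this edgeR test, 0 were called, and 4 had an unadjusted p under 0.05. The lowest adjusted p of a long circRNA in this edgeR test was 0.690. Log2 fold changes of model over control were above 0 for 37 of the 56, with a median of 0.16, compared with 49.4% and a median of -0.06 over all circRNAs tested. Without model replicate 1, 19 of the 39 long circRNAs tested were above 0, with a median of -0.13. The median over all 859 circRNAs tested in that setting was -0.15.

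**Figure D5:**
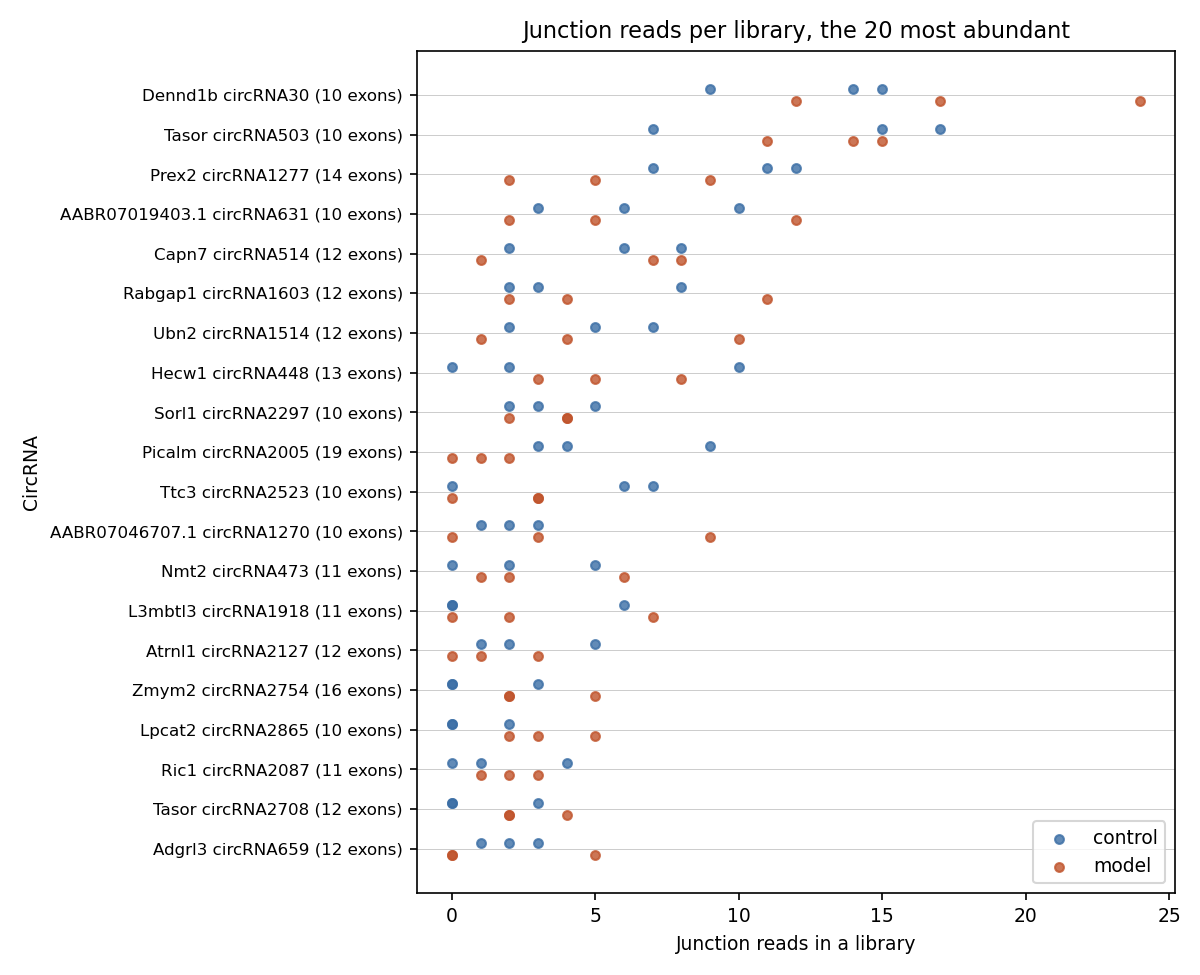
Junction reads in each of 6 libraries for the 20 long circRNAs with the most reads, with controls above and model rats below each line. Dennd1b circRNA30 spans 9 to 24 reads in a library, and the points of the groups interleave for most members, with Picalm circRNA2005 and Lpcat2 circRNA2865 as exceptions.

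Dennd1b circRNA30 was the most abundant long circRNA, with 10 exons on the plus strand of chromosome 13 from 50645187 to 50716042 (mRatBN7.2). It had 15, 9 and 14 reads in the controls and 12, 17 and 24 in the model rats. The groups overlapped, with the highest count in model 3. Its level was 2.00 ± 0.494 reads per 1000 TMM-scaled junction reads in controls and 3.26 ± 1.02 in the model group (SD, n = 3 each), a log2 fold change of 0.70 ± 0.46 (SE; edgeR quasi-likelihood test, adjusted p = 0.964). TMM scaling corrects library totals for differences in composition.

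Tasor circRNA503 had 10 exons on the plus strand of chromosome 16 from 2616143 to 2628072. It had 15, 17 and 7 reads in the controls and 14, 15 and 11 in the model rats, and the groups overlapped. Levels were 2.03 ± 0.784 and 2.49 ± 0.590 reads per 1000 (SD, n = 3 each; log2 fold change 0.28 ± 0.50, edgeR adjusted p = 0.964). Prex2 circRNA1277, with 14 exons on the minus strand of chromosome 5 from 8017077 to 8092715, had 7, 12 and 11 reads in the controls and 5, 2 and 9 in the model rats. It overlapped between the groups, with the low counts in model 1 and 2.

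The other members seen in all 6 libraries had fewer reads and also overlapped. AABR07019403.1 circRNA631, with 10 exons on chromosome 15, had 6, 10 and 3 reads in controls and 12, 2 and 5 in model rats. Capn7 circRNA514, with 12 exons of a calpain protease gene on chromosome 16, had 2, 6 and 8 against 7, 1 and 8, and shorter circles of that gene had 1 read in all. Each of these counts varied within a group as much as between the groups. Rabgap1 circRNA1603, with 12 exons of a gene for a Rab GTPase-activating protein on chromosome 3, had 8, 3 and 2 against 2, 4 and 11. Ubn2 circRNA1514, with 12 exons on chromosome 4, had 7, 2 and 5 against 10, 4 and 1. Sorl1 is the gene of an endosomal sorting receptor for the amyloid precursor protein, and its circRNA2297, with 10 exons on chromosome 8, had 5, 3 and 2 against 2, 4 and 4.

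Of the 12 most-read members, 4 were missing from at least 1 library. Hecw1 circRNA448, from a gene for a HECT ubiquitin ligase, had 10, 2 and 0 reads in controls and 8, 3 and 5 in model rats. Ttc3 circRNA2523, also from a ubiquitin ligase gene, had 0, 6 and 7 against 3, 0 and 3, and AABR07046707.1 circRNA1270 had 3, 1 and 2 against 9, 0 and 3. These 3 overlapped between the groups.

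Picalm circRNA2005 holds 19 exons on the plus strand of chromosome 1 from 144085190 to 144126607, and it had 4, 9 and 3 reads in the controls and 2, 0 and 1 in the model rats. All 3 controls lay above all 3 model rats. Its level was 0.844 ± 0.515 reads per 1000 in controls and 0.177 ± 0.178 in the model group (SD, n = 3 each), and its log2 fold change of -2.19 ± 1.18 did not pass (edgeR with the 6-read filter, adjusted p = 0.690). With 1 library omitted the log2 fold change ran from -3.01 (model 1) to -1.53 (control 2). The authors' deposited table gives it a log2 fold change of -2.40 with a p-value of 0.0477 and a q-value of 1.

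Groups that did not overlap were found for 7 of the 56 members with at least 6 reads. The model libraries were all above the controls for 2, Lpcat2 circRNA2865 and Hltf circRNA5687, where 5.15% of all 1029 circRNAs of at least 6 reads had this order. They were all below for 5, those of Picalm, Mkln1, Myo9a, Usp54 and Ddhd2, where 4.76% of all had that order. Levels here are per 1000 TMM-scaled reads. The share of 2 of 56 was near its background and that of 5 of 56 was higher than its own, with no test of the difference.

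Lpcat2 makes phosphatidylcholine and the lipid mediator platelet-activating factor, and its circRNA2865 had 0, 2 and 0 reads in controls and 2, 3 and 5 in model rats. Its groups touched at 2 reads before scaling. Hltf is a helicase-like protein of DNA damage tolerance, and its circRNA5687 had 0, 0 and 0 against 1, 4 and 2. With the control group at the floor of 3 counts over the group, its counted level was at least 2.73-fold higher in the model libraries. Such bounds, here and below, take the reads of the other group as exact and leave out the spread between rats. Dennd1b circRNA4958 ended at the same donor as circRNA30 and had 0, 0 and 0 reads in the controls against 4, 0 and 3, at least 2.73-fold higher. Its groups overlapped at 0.

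Dock3 circRNA6642, from a neuronal activator of Rac, had 0, 0 and 0 against 0, 1 and 5, at least 2.34-fold higher, with 5 of its 6 reads in model 3. Osbpl1a circRNA790, from an oxysterol-binding protein gene, had 1, 0 and 0 against 2, 4 and 0. Both overlapped between the groups at 0.

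Mkln1 encodes muskelin, a part of the CTLH ubiquitin ligase, and its circRNA1501 had 2, 1 and 7 reads in controls and 0, 0 and 0 in model rats, at least 2.85-fold lower. Usp54 is a gene of the ubiquitin-specific peptidase family, and its circRNA569 had 2, 3 and 3 against 0, 0 and 0, at least 2.28-fold lower. Every control library held reads of both, and no model library did. Ddhd2 circRNA549 had 1, 1 and 4 against 0, 0 and 0, at least 1.71-fold lower, and Stag1 circRNA2379 had 5, 2 and 0 against 0, 0 and 0, at least 2.00-fold lower. Myo9a, an unconventional myosin, had 2, 2 and 3 reads of circRNA2329 in controls and 0, 0 and 1 in model rats. None of these passed edgeR's quasi-likelihood test, in which their adjusted p was at least 0.690.

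The authors' deposited table marks 35 of the 8635 circRNAs (0.405%) as changed, and 4 of these are long. They are Hltf circRNA5687 as higher (p = 0.0486 in the authors' deposited table), and Mkln1 circRNA1501 (p = 0.0287), Usp54 circRNA569 (p = 0.0324) and Picalm circRNA2005 as lower. The q-value of all 4 in the authors' deposited table is 1.

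Reads of all long circRNAs of a host were also summed and tested beside the sums of its shorter circRNAs and ciRNAs. With the default filter, 99 sums were tested by edgeR's quasi-likelihood test and 3 (3.03%) were called, and none of the 3 long sums that passed the filter was called. Of these long sums 0 had an unadjusted p under 0.05, which 4.04% of the 99 had, and 2 had a log2 fold change above 0, which 47.5% of the 99 had. With the 6-read filter 1079 sums were tested, of which 3 (0.278%) were called and 70 (6.49%) had an unadjusted p under 0.05. Of 83 long sums, 0 were called by edgeR, 5 had an unadjusted p under 0.05, and 57 had a log2 fold change above 0, compared with 51.4% of all sums, with medians of 0.33 and 0.07. Without model replicate 1, 33 of the 66 long sums tested were above 0, with a median of -0.01. The median over all 946 sums tested in that setting was -0.06. The groups did not overlap in 15 of the 83. The model rats were above in 9 (5.56% of all sums of at least 6 reads had this order) and below in 6 (5.56% of all).

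The 9 hosts with model libraries above all controls in scaled levels were Nbea, Dennd1b, Usp34, Nbas, Ecpas, Arhgap29, Xrn1, Lpcat2 and Hltf. Before scaling, the groups touched at 1 read for Usp34, Arhgap29 and Xrn1 and at 2 reads for Lpcat2, and those of Dennd1b overlapped. Dennd1b sums were 15, 9 and 18 reads in controls and 17, 21 and 27 in model rats. Scaled levels were 2.21, 1.44 and 3.03 against 3.03, 4.32 and 4.67 reads per 1000, so control 3 and model 1 were at nearly the same level. The means were 2.23 ± 0.795 and 4.01 ± 0.860 (SD, n = 3 each), with a log2 fold change of 0.87 ± 0.47 (edgeR adjusted p = 0.793).

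Nbea had 3, 1 and 2 long reads in controls and 6, 4 and 5 in model rats, spread over its 15 circles (log2 fold change 1.49 ± 0.94 with the 6-read filter, edgeR adjusted p = 0.941). Ecpas, an adaptor of the proteasome, had 0, 1 and 0 against 5, 3 and 4 (log2 fold change 3.33 ± 1.43, edgeR adjusted p = 0.753). The Ecpas control level rested on 1 read, and its log2 fold change was 5.13 without control replicate 2. All model libraries of Nbea and Ecpas held more long reads than any control, and neither host passed the test.

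The 6 hosts with model libraries below all controls were Prex2, Picalm, Myo9a, Adcy2, Stxbp5 and Mkln1. Prex2 sums were 16, 14 and 14 reads in controls and 7, 5 and 11 in model rats, or 2.32 ± 0.0704 and 1.39 ± 0.454 reads per 1000 (SD, n = 3 each; log2 fold change -0.69 ± 0.63, edgeR adjusted p = 0.851). Picalm sums were 6, 15 and 5 against 3, 0 and 1 (-2.43 ± 0.91 with the 6-read filter, edgeR adjusted p = 0.753), and the log2 fold change ran from -3.61 without model replicate 1 to -1.76 without control replicate 2. Tasor sums, by contrast, overlapped, with 17, 20 and 8 reads in controls and 22, 19 and 13 in model rats (0.54 ± 0.48, edgeR adjusted p = 0.851).

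The remaining hosts with many long circles overlapped between the groups. Atrnl1 had 10, 11 and 4 long reads in controls and 3, 4 and 2 in model rats, touching at 4 reads (-1.21 ± 0.79 with the 6-read filter). Lrp1b had 5, 4 and 4 against 2, 1 and 9, and Agtpbp1 had 2, 4 and 4 against 6, 3 and 2. Long reads summed over the controls and over the model rats were 15 and 28 for the BEACH and VPS13 genes listed, and 4 and 14 for the ion channels listed. By library the first were 7, 3 and 5 against 9, 12 and 7, and the groups touched at 7. The second were 1, 2 and 1 against 6, 6 and 2, and touched at 2. The GTPase-activating list had 32 and 25, or 17, 5 and 10 against 5, 7 and 13 by library, and the groups overlapped. Chromatin regulators had 59 and 63, or 24, 24 and 11 against 29, 19 and 15, and overlapped as well. All of these are reads not scaled for depth. These sums were not tested.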

How the data were processed

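The authors deposited 1 table with raw counts of back-splice junction reads per circRNA and library, per the file headers. The signal headed SRPBM, also deposited, equals each count scaled by 1 divisor per library and was used only as an alternative scale. The deposited log2 fold changes, p-values and q-values are the authors' own, from a test that no source used here gives. Coordinates are in mRatBN7.2, the build in the submitters' processing notes, 1-based as the authors' table lists them. For alignment and circRNA calling, the tools were not given in the sources used here. No junction sequence is printed, since no genome of that build was used here, and the RefSeq GRCr8 table was used for names only.

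Groups came from the sample labels, which name 3 separate samples a group, and the p-values measure the spread between these libraries. The members and gene lists were chosen with earlier results of these data known. The quasi-likelihood test of edgeR 4.0.16 in R 4.3.3 was fitted to the whole table, with TMM scaling and filterByExpr (min.count 10, min.total.count 15), or at least 6 reads, and Benjamini-Hochberg adjustment. Values of whole libraries were compared with exact permutation tests, all two-sided. The scripts were tested on simulated data. Alternatives were DESeq2 1.42.0, limma 3.58.1 voom, other scaling, filters and exon thresholds, the omission of each library and a replicate block. The test within hosts of both classes and the combined 6-read settings were chosen after seeing the data.

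Named circRNAs were the 12 with the most reads, those past the threshold, the 5 with the lowest unadjusted p in each direction, those with the most exons and the longest and shortest spans, those seen in all libraries, and those marked in the authors' table. Named hosts were the 5 with the most long circRNAs and the 5 with the most long reads. Up to 3 hosts a list, and hosts whose groups did not overlap, were named as well, as were Picalm, Ecpas, Myo9a, Carmil3 and Cntnap2, chosen after their values were seen.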

Additional observations from a re-analysis of the deposited data

How the results depend on the processing

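With edgeR, 0 long circRNAs and 0 host sums of them were called under each scaling, filter and omitted library tried. DESeq2 and voom, run with the default filter only, called 0 of 2 and 0 of 3. At 8 or more exons 0 of 4 circRNAs and 0 of 8 sums were called, and at 12 or more 0 of 1 sum, where no single circRNA passed the filter. The higher share of reads in the model group kept its direction in every alternative, from 0.639 points at 12 or more exons to 1.80 points at 8 or more. For omitted libraries the direction was fixed in advance, since the groups did not overlap. The groups did overlap for summed SRPBM, for single-read circRNAs (10.02% against 10.8%) and for the share of distinct circRNAs (7.90% against 8.58%). The mean log2 span difference turned to -0.0150 without control replicate 2, -0.00553 with at least 2 reads and -0.0562 at 12 or more exons, and lay between -0.0150 and 0.0531 over omitted libraries. Reads per distinct circRNA differed by -0.966 to -0.906 with 1 library omitted, where 5 pairs allow no exact p below 0.0625.

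Of 32 named results, 21 kept 1 sign in every setting in which they were tested. Some of these, such as Mkln1 circRNA1501 and Hltf circRNA5687, had no read in a whole group. For them no omission or scaling could turn the sign, so the count does not measure stability. With 1 library omitted, log2 folds ranged from -0.12 to 0.55 for Tasor circRNA503, -0.70 to 0.65 for AABR07019403.1 circRNA631, -0.33 to 0.60 for Capn7 circRNA514, -0.40 to 1.27 for Rabgap1 circRNA1603, -0.65 to 0.66 for Ubn2 circRNA1514, -0.09 to 0.55 for Sorl1 circRNA2297 and -0.25 to 1.67 for AABR07046707.1 circRNA1270. For host sums they ranged from -1.26 to 0.47 at Lrp1b, -0.16 to 0.59 at Agtpbp1, -0.60 to 0.68 at AABR07019403.1 and -0.62 to 0.82 at Ubn2. With the authors' divisors, Capn7 circRNA514 was at -0.0195 and the Lrp1b sum at -0.122. Single omissions gave -0.245 for AABR07019403.1 circRNA631 (control 3), -0.293 (control 1) and -0.132 (model 1) for Capn7 circRNA514, -0.0737 for Ubn2 circRNA1514 (control 2), and -0.0893 (control 3) and -0.0368 (model 3) for Sorl1 circRNA2297. The cause was not tested.

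Samples that share a replicate number did not deviate together (correlations -0.0569, -0.0181 and -0.0293 over 561 circRNAs). Samples with different numbers had correlations of -0.0542 to 0.0833. With counts this low, such values cannot decide whether the numbers are a pairing, and the labels do not say. With the replicate block, Capn7 circRNA514 was at -0.00777, the Lrp1b sum at -0.217, and the share difference of 1.01 points had an exact paired permutation p of 0.25. The block made no call among the long circRNAs or their host sums. Depth limits all of this: 56 of 840 long circRNAs had at least 6 reads.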
